A study of Mus musculus with 6 samples.

Results

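The genes described here encode thioredoxin-related proteins and enzymes that remove superoxide and peroxides, in mouse skeletal muscle after electrical pacing. The list held 10 genes, and a gene was measured if a probe of the array was annotated with its symbol and no other. On that rule 7 of the 10 genes were measured, through 18 probes, among 3939 genes with such a probe on the array. They were Txnl1 (2 probes), Txnip (2 probes), the peroxiredoxin genes Prdx1 (2 probes), Prdx2 (2 probes) and Prdx3 (3 probes), the glutathione peroxidase gene Gpx1 (3 probes) and the mitochondrial superoxide dismutase gene Sod2 (4 probes). Sod1, Cat and Prdx5 had no such probe and were not analysed here.

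Muscle was taken from mice with an implanted pacer that had been active for 3 h, at 0 h, 1 h, 3 h, 8 h and 24 h after stimulation ended, and from sham mice whose implanted pacer stayed inactive. Sham muscle was collected at the time that corresponds to 0 h, so differences from sham at 1 h, 3 h, 8 h and 24 h combine pacing with elapsed time. Each of the 6 groups had 1 array with 2 channels, on which its total RNA was set against a reference RNA from control muscle, called Pre. Neither the labels nor the table state the strain, age or sex of the mice, the muscle sampled or how many animals each RNA came from. With 1 array per group no difference has a replicate check and no p-value was computed. The spread given beside a value is that of a gene's probes on the same arrays, not of animals.

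The values are log2 ratios to Pre, most likely sample over Pre, a direction read from the naming of channel 2 as a reference because no dyes are stated. If the ratios run the other way, every sign, rank and percentage of sham below turns round, so that Txnl1 would be lower than sham and Txnip higher. A ratio compares a gene with itself in Pre and says nothing of how abundant it was, so the levels of different genes were not compared. Between 87.3% and 95.2% of 13872 probes were counted as measured on each array, and 3180 genes had a value on all 6. The width of the ratios differed between arrays, with a robust standard deviation (SD) of 0.29 (0 h), 0.18 (1 h), 0.45 (3 h), 0.24 (8 h), 0.40 (24 h) and 0.49 in sham. Differences were therefore also computed after scaling the arrays to a common width, and signs that turned under that scaling are given beside each gene. In whole muscle, fewer cells of a type and less RNA per cell cannot be told apart.

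Thioredoxin is a small protein that reduces disulphide bonds in other proteins and passes electrons to peroxiredoxins, which break down hydrogen peroxide. Superoxide, formed in mitochondria and by membrane oxidases of working muscle, is first converted to hydrogen peroxide by superoxide dismutases, and peroxiredoxins, glutathione peroxidases and catalase then remove the peroxide. Txnip binds reduced thioredoxin and blocks it, and it also restrains glucose uptake. Txnl1 is a cytosolic protein with a thioredoxin domain that is found bound to the proteasome.

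Txnl1 stood apart from the enzymes, higher than sham at all 5 times and past 2-fold at 4 of them. Txnip was slightly lower than sham up to 3 h, with a sign that turned at 0 h and 1 h under that scaling, and nearly 2-fold lower at 8 h and 24 h, while Prdx1 was above Pre on every array, sham included. The gene means of Prdx2, Prdx3, Gpx1 and Sod2 stayed within 0.38 log2 units of sham at every time. Probes of Gpx1 and Sod2 opposed each other, from -0.95 to 0.94 (Gpx1, 0 h) and from -1.16 to 0.26 (Sod2, 24 h). On the 2 probes measured on both arrays, Prdx3 was at -0.48 at 0 h. A difference of 2-fold or more, an absolute log2 difference of at least 1, was used as a size threshold. In the higher direction 1 of 7 genes passed it against sham at 0 h, where 3.11% of all 3180 genes did, 0 of 7 (1 h, 0.786% of all genes), 1 (3 h, 1.32%), 1 (8 h, 1.67%) and 1 (24 h, 3.02%). The gene was Txnl1 each time. In the lower direction 0 of 7 genes passed at any time, with 2.86%, 0.535%, 0.818%, 1.57% and 2.80% of all genes lower at 0 h, 1 h, 3 h, 8 h and 24 h. At a smaller threshold of 1.5-fold in either direction, 1, 1, 2, 2 and 2 of 7 genes differed from sham at these times, beside 23.6%, 11.1%, 10.8%, 17.6% and 22.1% of all genes. At 3 h the count includes Prdx1, measured there on 1 probe. On the probe measured on both arrays Prdx1 was 1.44-fold above sham, short of this threshold.

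Against Pre the count was 2 of 7 genes higher at 0 h, where 1.45% of all genes were, 0 (1 h, 0.755%), 2 (3 h, 2.83%), 2 (8 h, 1.64%) and 2 (24 h, 3.90%). These were Txnl1 and Txnip at 0 h and Txnl1 and Prdx1 at 3 h, 8 h and 24 h. The 3 h value of Prdx1 rests on probe 6734 alone, which read 1.64 there and 1.11 in sham. At 8 h the mean of Prdx1 was 1.03, with probe 12025 at 0.88. In sham muscle Txnip was 2-fold above Pre, as were 1.82% of all genes. No member was 2-fold below Pre on any array, where 0.723%, 0.0943%, 2.14%, 0.723% and 1.51% of all genes were at 0 h, 1 h, 3 h, 8 h and 24 h and 1.51% in sham.

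**Figure D1:**
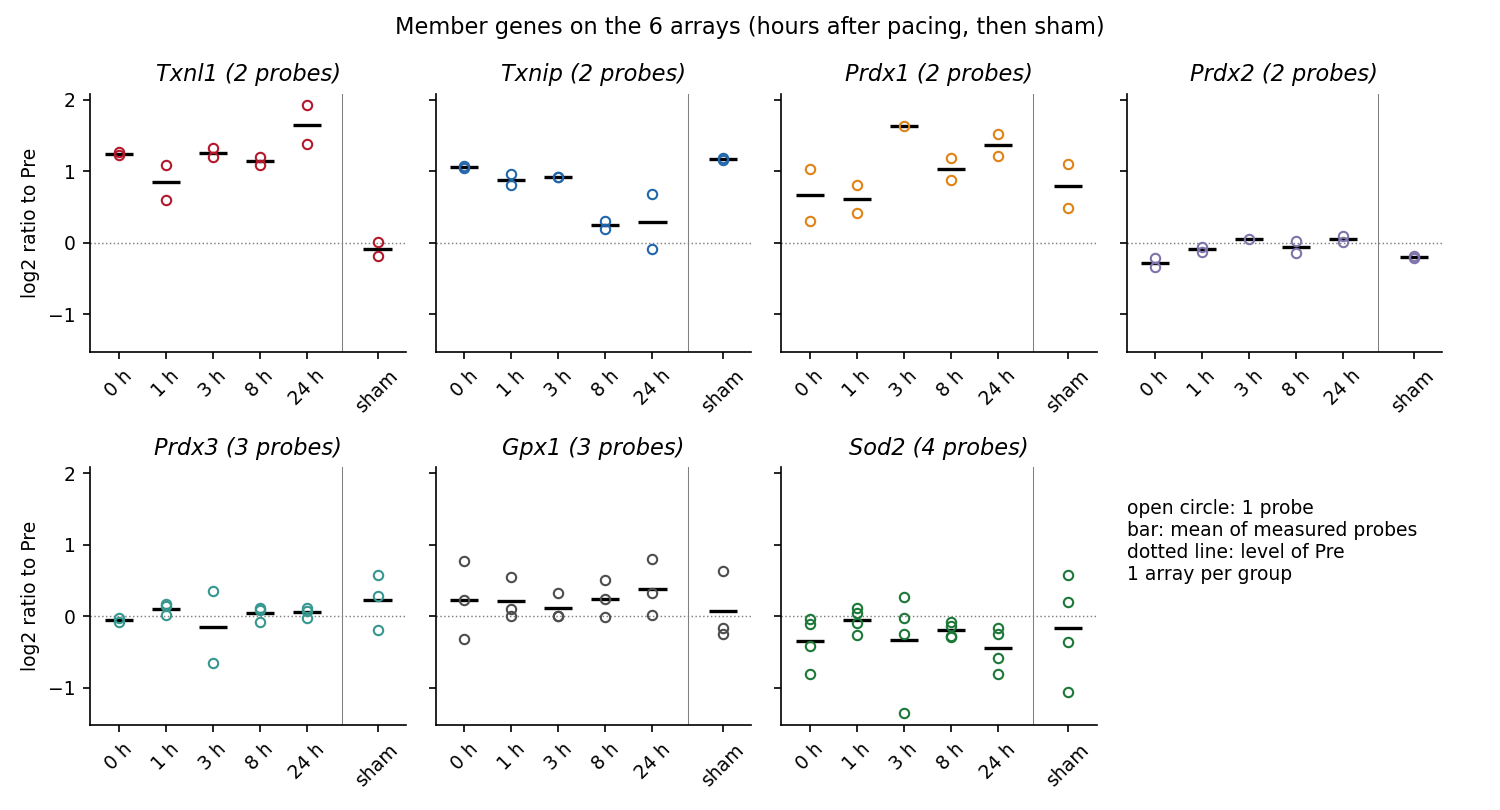
Log2 ratio to Pre (vertical axis) of the 7 measured genes on each array (horizontal axis, hours after pacing and then sham). Open circles are single probes, bars the mean of the probes measured, and the dotted line marks the level of Pre. Txnl1 lay between 0.84 and 1.65 on the paced arrays and at -0.09 in sham, Txnip was lowest at 8 h and 24 h, and the probes of Gpx1 and Sod2 were spread widely.

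Txnl1 had log2 ratios to Pre of 1.25 (0 h), 0.84 (1 h), 1.26 (3 h), 1.14 (8 h) and 1.65 (24 h), against -0.09 in sham. All 5 paced arrays were high and the sham array was at the level of Pre. Its probe 1479 read 1.27, 1.09, 1.19, 1.09 and 1.92 at the 5 times, against 0.00 in sham. The other, probe 9021, read 1.23, 0.59, 1.33, 1.19 and 1.38, against -0.19 in sham. Both probes thus put every paced array above sham, and they differed most at 1 h and 24 h.

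Set against sham, Txnl1 was 2.53-fold higher at 0 h (log2 difference 1.34, probe SD 0.11, 2 probes), 1.91-fold at 1 h (0.94, probe SD 0.22), 2.56-fold at 3 h (1.35, probe SD 0.23), 2.35-fold at 8 h (1.23, probe SD 0.21) and 3.36-fold at 24 h (1.75, probe SD 0.25). Among the 3180 genes its difference from sham ranked 33rd from the top at 0 h, 35th at 1 h, 15th at 3 h, 21st at 8 h and 6th at 24 h. Its range over the 6 arrays, 1.75 log2 units, was wider than that of 98.8% of genes, whose median range was 0.58. The increase was already present in muscle taken as stimulation ended. From 0 h to 1 h the log2 difference was -0.41 (probe SD 0.33), from 1 h to 3 h it was 0.42 (probe SD 0.45) and from 8 h to 24 h it was 0.51 (probe SD 0.46), so these 3 steps were about as large as the disagreement of the probes. From 3 h to 8 h it was -0.12 (probe SD 0.02), a small step on which the probes agreed. With arrays scaled to a common width the difference from sham lay between 1.05 at 3 h and 1.72 at 1 h. It was past 2-fold at every time on that scale, and the value at 1 h, on the array with the narrowest ratios, changed most.

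Txnip had log2 ratios to Pre of 1.06 (0 h), 0.88 (1 h), 0.92 (3 h), 0.25 (8 h) and 0.29 (24 h), against 1.17 in sham. It was therefore high in sham muscle and in muscle up to 3 h after pacing, and nearer to Pre at 8 h and 24 h. Probe 5449 read 1.05, 0.80, 0.92, 0.31 and 0.68 at the 5 times, against 1.15 in sham. Probe 5613 read 1.08, 0.95, 0.91, 0.19 and -0.09, against 1.19 in sham. The 2 probes agreed within 0.16 log2 units on 5 arrays and parted at 24 h.

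Against sham, Txnip stood at a log2 difference of -0.11 (0 h, probe SD 0.00), -0.29 (1 h, probe SD 0.08), -0.26 (3 h, probe SD 0.03), -0.93 (8 h, probe SD 0.11) and -0.88 (24 h, probe SD 0.58). These correspond to 92.7%, 81.5%, 83.8%, 52.7% and 54.4% of the sham ratio, and none of the gene means passed 2-fold. At 8 h 1 probe was just past 2-fold, at -1.01, and the other stood at -0.85. At 24 h the probes stood at -0.47 and -1.29. The 8 h value ranked 63rd from the lowest of 3180 genes. Between 3 h and 8 h Txnip was lower by -0.67 (probe SD 0.08), the largest step of any of its successive times, and that step ranked 113th from the lowest. With arrays scaled to a common width, the sign turned at 0 h (0.44) and 1 h (0.90) and the differences at 3 h, 8 h and 24 h were -0.11, -0.47 and -0.57. The lower values at 3 h, 8 h and 24 h thus kept their sign on both scales, while those at 0 h and 1 h did not.

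The promoter of Txnip is shown because transcription of this gene is known to follow glucose through a carbohydrate response element, a pair of E-box-like motifs bound by MondoA or ChREBP with Mlx, and because FOXO factors also act on it. The sequence runs from 250 bases before to 50 bases after the start of the RefSeq gene model, chr3:96557707-96558006 on the plus strand (build GRCm38.p6), and capitals mark CACGNG and GTAAACA, searched on both strands.
Txnip: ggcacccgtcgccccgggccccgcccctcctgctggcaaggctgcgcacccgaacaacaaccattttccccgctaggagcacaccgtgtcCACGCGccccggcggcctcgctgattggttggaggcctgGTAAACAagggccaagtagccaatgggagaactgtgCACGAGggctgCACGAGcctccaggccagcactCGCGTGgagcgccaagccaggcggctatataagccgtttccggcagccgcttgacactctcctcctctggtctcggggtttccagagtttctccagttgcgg
CACGNG, which includes CACGTG, was found 4 times, at bases 91 to 96, 166 to 171, 177 to 182 and 199 to 204 of the window. Of 32851 promoter windows of the same length, 27.5% held it and 1.28% held it 4 or more times. The copies at 166 and 177 form a direct repeat with 5 bases between them, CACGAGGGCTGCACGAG, and the pattern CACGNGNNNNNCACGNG, searched after this sequence had been seen, was in 16 of the 32851 windows (0.0487%). GTAAACA was at bases 130 to 136 and in 3.65% of all windows. CACGTG, in 7.15% of windows, and TGANNNNGC, the core of the antioxidant response element, in 41.3%, were not in this window. These are matches of letters, and the arrays measured neither binding nor promoter activity.

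Taken on the same array, the log2 ratio of Txnl1 minus that of Txnip was 0.19 (0 h), -0.04 (1 h), 0.35 (3 h), 0.89 (8 h) and 1.36 (24 h), against -1.27 in sham. A shift of a whole array cancels in this quantity, though its width does not. Relative to sham the quotient of Txnl1 to Txnip was 2.73-fold at 0 h, 2.35-fold at 1 h, 3.05-fold at 3 h, 4.46-fold at 8 h and 6.17-fold at 24 h. Txnl1 gave 1.34 of the 1.45 log2 units at 0 h, 0.94 of 1.23 at 1 h and 1.35 of 1.61 at 3 h. At 8 h it gave 1.23 of 2.16 and at 24 h 1.75 of 2.62, with the rest from the lower Txnip. With arrays scaled to a common width the log2 differences from sham were 1.11, 0.82, 1.15, 2.17 and 2.06 at the 5 times. The genes thus lay on opposite sides of sham at every time as deposited, and at 3 h, 8 h and 24 h after scaling. They did not lie on opposite sides of Pre, since both were above it on every paced array. In sham Txnip stood at 1.17 and Txnl1 at -0.09.

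**Figure D2:**
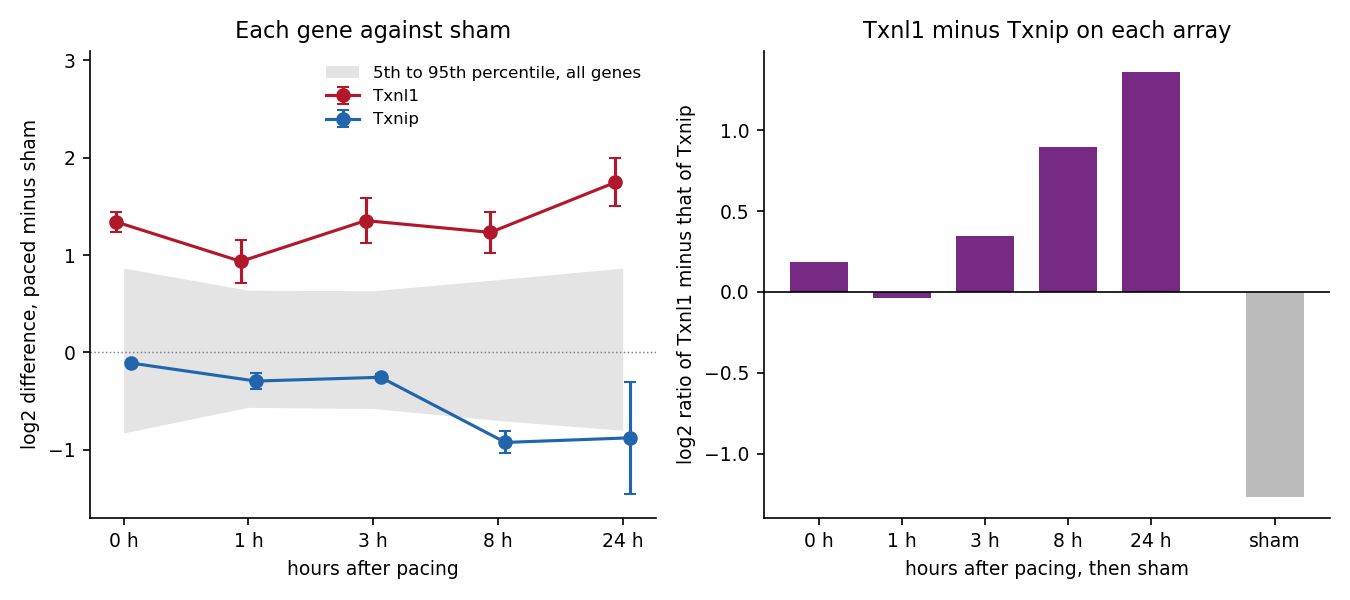
Left, log2 difference from sham (vertical axis) of Txnl1 and Txnip at each time after pacing (horizontal axis), with bars of 1 SD over the 2 probes and the 5th to 95th percentile of all 3180 genes in grey. Right, the log2 ratio of Txnl1 minus that of Txnip on each paced array and in sham. Txnl1 lay above the grey band at all times, Txnip lay below it at 8 h and 24 h, and the quantity on the right was -1.27 in sham and 1.36 at 24 h.

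The genes whose 6 ratios lay closest to those of Txnl1 were Psma3, a proteasome core subunit, Ift81, Eif4e3, Arl3 and Atg13, with root mean square differences from 0.33 to 0.36 log2 units over the 6 arrays, where the median gene was at 1.17. None was as low in sham as Txnl1, since they stood between 0.26 and 0.63 above Pre there. For Txnip the closest were Serinc3, Manbal, Abcf2, Atp6v0d1 and Pdlim5, at 0.25 to 0.33, where the median gene was at 0.88. Serinc3 stood at 0.85, 0.71, 1.33, 0.28 and 0.63 at the 5 times, against 1.08 in sham. Manbal was also low at 24 h, at 0.10, but stood at 0.83 at 8 h. Each of these genes had 1 probe except Pdlim5, with 6.

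Prdx1 encodes an abundant cytosolic peroxiredoxin that uses thioredoxin to reduce peroxide. Its log2 ratios to Pre were 0.66 (0 h), 0.61 (1 h), 1.64 (3 h), 1.03 (8 h) and 1.36 (24 h), against 0.80 in sham. All 6 arrays stood above Pre, and the 3 later ones above sham. The 3 h value rests on 1 probe, because probe 12025 held an exact 0 there and was treated as not measured. Probe 6734 read 1.03, 0.80, 1.64, 1.18 and 1.52 at the 5 times, against 1.11 in sham. Probe 12025 read 0.30, 0.41, 0.88 and 1.21 at 0 h, 1 h, 8 h and 24 h, against 0.49 in sham.

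Set against sham, Prdx1 differed by -0.13 (0 h, probe SD 0.08), -0.19 (1 h, probe SD 0.16), 0.23 (8 h, probe SD 0.23) and 0.57 (24 h, probe SD 0.22), a 1.48-fold difference at the last time. At 3 h the gene mean gave 0.84, but the probe measured on both arrays gave 0.53, and with the exact 0 kept as a value the difference was 0.02. No time passed 2-fold. Both probes were below sham at 0 h and 1 h and above it at 8 h and 24 h. With arrays scaled to a common width the differences at 0 h and 1 h turned to 0.23 and 0.63, and those at 3 h, 8 h and 24 h were 0.71, 0.92 and 0.62. In sham itself Prdx1 ranked 108th from the top of 3180 genes, so its position above Pre was shared by unpaced, operated muscle.

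The promoter of Prdx1 is shown because the gene is a known target of Nrf2, which acts through the antioxidant response element. The window is chr4:116685349-116685648 on the plus strand (RefSeq, build GRCm38.p6), and capitals mark TGANNNNGC and CACGNG, searched on both strands.
Prdx1: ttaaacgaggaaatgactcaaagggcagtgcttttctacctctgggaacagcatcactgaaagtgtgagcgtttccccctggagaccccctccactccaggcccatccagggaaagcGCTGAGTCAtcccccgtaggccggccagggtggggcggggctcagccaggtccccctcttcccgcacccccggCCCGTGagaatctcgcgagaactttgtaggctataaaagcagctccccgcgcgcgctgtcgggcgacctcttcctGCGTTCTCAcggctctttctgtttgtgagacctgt
TGANNNNGC was found at bases 118 to 126, as GCTGAGTCA on the minus strand, and at bases 266 to 274. It was in 41.3% of all windows, and 10.1% held it 2 or more times. CACGNG was at bases 191 to 196, and GTAAACA and CACGTG were not in the window. In the windows of Prdx2, Prdx3, Gpx1 and Sod2 there was no TGANNNNGC. CACGNG was found 2 times in the window of Prdx2 and 1 time in that of Sod2, and was absent from those of Prdx3 and Gpx1.

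Prdx2, a cytosolic relative of Prdx1 that is also abundant in red blood cells, had log2 ratios to Pre of -0.28 (0 h), -0.09 (1 h), 0.04 (3 h), -0.06 (8 h) and 0.05 (24 h), against -0.21 in sham. These were the least variable after Gpx1, with a range of 0.33 log2 units, and 15.8% of genes had a smaller range. Against sham they were -0.08, 0.11, 0.25, 0.15 and 0.25, with a probe SD between 0.03 and 0.13 where both probes were measured, which was everywhere but 3 h. At 24 h both probes were above sham, by 0.28 and 0.22. The sign at 1 h turned to -0.04 with arrays scaled, and at 0 h the difference was 0.00 on the probe measured on all arrays. Spotted cDNA can bind close relatives, so Prdx1 and Prdx2 signals may overlap.

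The mitochondrial peroxiredoxin gene Prdx3 had log2 ratios to Pre of -0.06 (0 h), 0.11 (1 h), -0.15 (3 h), 0.04 (8 h) and 0.05 (24 h), against 0.22 in sham. Sham was the highest of the 6. Against sham the gene means were -0.28, -0.12, -0.38, -0.19 and -0.17, lower at every time, and the value at 1 h turned to 0.05 with arrays scaled. Probes 457 and 13721 were below sham wherever they were measured, whereas probe 784 was above it at 1 h, 8 h and 24 h, by 0.35, 0.10 and 0.16. At 0 h, on the 2 probes measured on both arrays, the difference was -0.48 (probe SD 0.17).

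Gpx1, which uses glutathione to reduce peroxides, had log2 ratios to Pre of 0.23 (0 h), 0.22 (1 h), 0.11 (3 h), 0.24 (8 h) and 0.38 (24 h), against 0.07 in sham. The means were above sham by 0.15, 0.14, 0.04, 0.17 and 0.30, but the probe SDs were 0.99, 0.63, 0.30, 0.53 and 0.82. Probe 12147 was above sham by 0.94, 0.71, 0.16, 0.66 and 0.96 and probe 9685 by 0.47, 0.25, 0.25, 0.23 and 0.56. The other probe, 12120, was below sham at each time, by as much as -0.95 at 0 h, having stood at 0.63 in sham where the others stood at -0.25 and -0.16. The direction of Gpx1 therefore depended on the probe.

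Sod2, the manganese superoxide dismutase of mitochondria, had log2 ratios to Pre of -0.35 (0 h), -0.05 (1 h), -0.34 (3 h), -0.20 (8 h) and -0.45 (24 h), against -0.17 in sham. Every array stood below Pre. The differences from sham were -0.18, 0.12, -0.18, -0.03 and -0.29, all smaller than the probe SDs of 0.55, 0.70, 0.56, 0.76 and 0.67 over 4 probes. In sham the probes stood at 0.57, 0.20, -0.37 and -1.07. At 24 h all 4 were below Pre, between -0.81 and -0.16, yet probes 2106 and 10040 were below sham, by -1.16 and -0.45, and probes 7983 and 8227 above it, by 0.21 and 0.26.

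The 5 measured enzymes had a median log2 difference from sham of -0.13 (0 h), 0.11 (1 h), 0.04 (3 h), 0.15 (8 h) and 0.25 (24 h). The medians of all 3180 genes were 0.04, 0.03, 0.02, 0.06 and 0.08. In number, 1 of 5 enzymes was above sham at 0 h and 3 of 5 at each later time, and no gene mean was past 2-fold from sham. At 24 h the gene means of Prdx1, Prdx2 and Gpx1 were above sham, and those of Prdx3 and Sod2 were below it. The differences of Gpx1 (0.30), Prdx3 (-0.17) and Sod2 (-0.29) were smaller than their probe SDs, 0.82, 0.31 and 0.67.

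**Figure D3:**
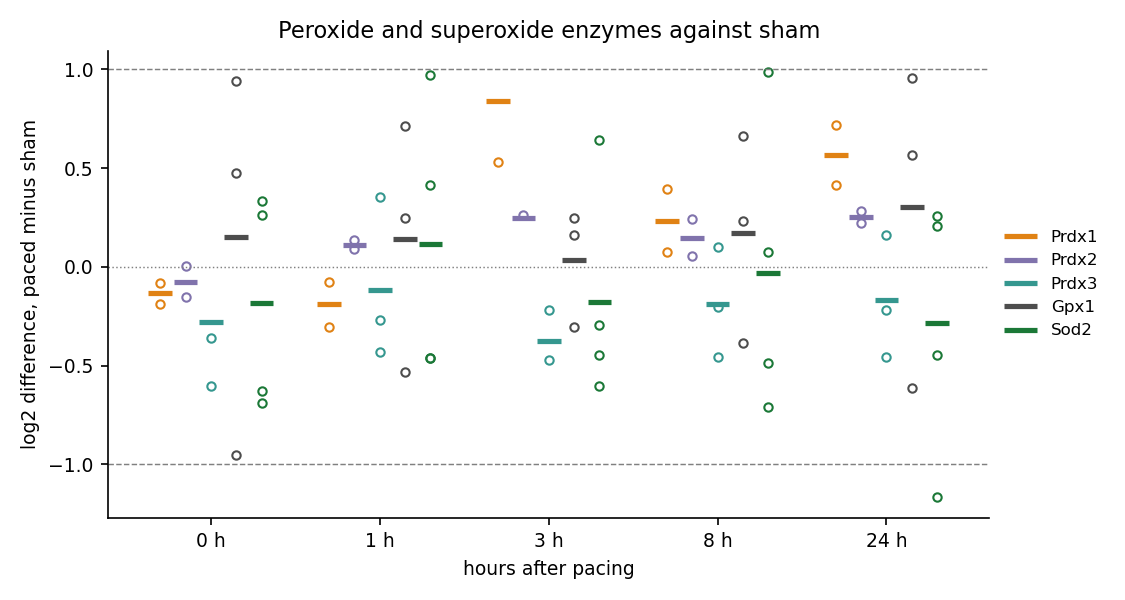
Log2 difference from sham (vertical axis) of the 5 enzyme genes at each time after pacing (horizontal axis), with the gene mean as a bar and each probe measured on both arrays as an open circle; dashed lines mark 2-fold. All gene means lie inside the dashed lines, and probes of Gpx1 and of Sod2 lie on both sides of zero at each time.

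Other genes of the pathway were read from a list of 71, of which 38 had a probe and 36 a value on at least 1 array. Of those with a value on both arrays of a comparison, 0 of 31 were 2-fold higher than sham at 0 h, 0 of 34 (1 h), 0 of 31 (3 h), 0 of 34 (8 h) and 1 of 32 (24 h). In the lower direction the counts were 0, 0, 0, 1 and 0. These stand beside the shares of all genes given above, 3.11% and 2.86% at 0 h and 3.02% and 2.80% at 24 h in the higher and the lower direction. Those shares cover the 3180 genes with a value on all 6 arrays, and the list genes counted as past 2-fold are not in that set. The list medians were 0.14, -0.10, 0.08, 0.02 and 0.04, and the signs at 3 h and 8 h turned under some processing alternatives.

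The 1 gene past 2-fold from both sham and Pre was Nfe2l2, which encodes Nrf2, the transcription factor that drives many antioxidant genes, at 24 h, where 1.23% of all genes were higher than both. Its log2 ratios to Pre were 1.25 (1 h), 1.14 (3 h), 0.95 (8 h) and 1.71 (24 h), against 0.65 in sham, and it was not measured at 0 h. The difference from sham at 24 h was 1.06 on 1 probe. Nqo1, a target gene of Nrf2, stood at 0.15 at 24 h, against 0.03 in sham. Hmox1, the inducible heme oxygenase gene, was lower than sham at each time, by -0.40, -0.65, -0.41, -0.49 and -0.77, having stood at 0.79 above Pre in sham, and by -0.09, -0.29, -0.26, -0.13 and -0.53 with arrays scaled. With arrays scaled to a common width Nfe2l2 was past 2-fold above sham at 1 h as well as at 24 h, where the difference was 1.02.

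In the thioredoxin set, Txn1, thioredoxin itself, stood at 0.05, -0.04, 0.37 and 0.02 at 0 h, 1 h, 8 h and 24 h, against 0.12 in sham, on 1 probe. Txnrd1, the cytosolic thioredoxin reductase, stood at 0.24, -0.13, -0.15, -0.20 and -0.18 at the 5 times, against -0.23 in sham. Neither passed 2-fold, and Txnrd1 turned to -0.09 at 1 h and -0.12 at 8 h against sham with arrays scaled. Nxn, nucleoredoxin, was the 1 gene past 2-fold lower than sham, at -1.06 at 8 h, and stood at -0.56, -0.75 and -0.85 at 0 h, 1 h and 24 h. Nxn had 1 probe and no value at 3 h. Against Pre it was at -0.60 at 8 h, with sham itself at 0.46. Txndc9, another protein with a thioredoxin domain, was 0.55 above sham at 0 h and 0.48 at 24 h.

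Among glutathione genes, Gstm2, a glutathione transferase, was lower than sham by -0.17 (1 h) and higher by 0.37 (3 h), 0.65 (8 h) and 0.84 (24 h). Gstp1, another transferase, was at -0.89, -0.89 and -0.71 against sham at 1 h, 3 h and 8 h, with sham itself at 1.28 above Pre, and at -0.13, -0.59 and -0.08 with arrays scaled. Glrx, a glutaredoxin, was highest of the list at 3 h, at 0.69 (3 probes, probe SD 0.58), and Mgst3, a microsomal transferase, was at -0.69 at 0 h and -0.45 at 3 h. Gsr, glutathione reductase, had no sham value and is named after its values were seen, at 0.90, 0.22, 0.69, 0.98 and 1.12 above Pre at the 5 times.

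Sesn1, a sestrin that responds to stress and restrains growth signalling, was the highest of the list at 0 h and 1 h, 1.92-fold and 1.63-fold above sham, log2 differences of 0.94 and 0.71. It stood at 1.31, 1.08, 0.90, 0.72 and -0.35 against Pre at the 5 times, against 0.37 in sham, each later paced value being lower than the one before. That order was lost with arrays scaled, where the differences from sham were 1.29, 1.85, 0.44, 0.76 and -0.56. Park7, a redox-sensitive chaperone, was lower than sham at each time, from -0.84 at 0 h (3 probes, probe SD 0.58) to -0.33 at 3 h. Sham itself stood at 0.66 above Pre for Park7. With arrays scaled its differences from sham were -0.68, -0.21, -0.20, -0.22 and -0.38 at the 5 times. Selenow, a muscle selenoprotein, was at -0.62 (0 h) and -0.60 (8 h), both against sham, which stood at 0.46 above Pre. With arrays scaled these were -0.51 and -0.52. The plasma selenoprotein gene Selenop was below sham at 1 h and 3 h, by -0.28 and -0.44, and above it at 0 h, 8 h and 24 h, by 0.21, 0.16 and 0.22. The methionine sulfoxide reductase genes Msrb1 and Msrb2 were among the highest at 0 h and 8 h, at 0.59 and 0.37. Prdx4, the peroxiredoxin of the secretory pathway, differed from sham by 0.42, 0.33, -0.15, 0.35 and 0.14 at the 5 times, and by 0.28, 0.08, -0.15, 0.17 and 0.05 with arrays scaled. Each gene of the pathway list named above had 1 probe, except Glrx, Park7 and Selenop (3 each) and Selenow (6).

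**Figure D4:**
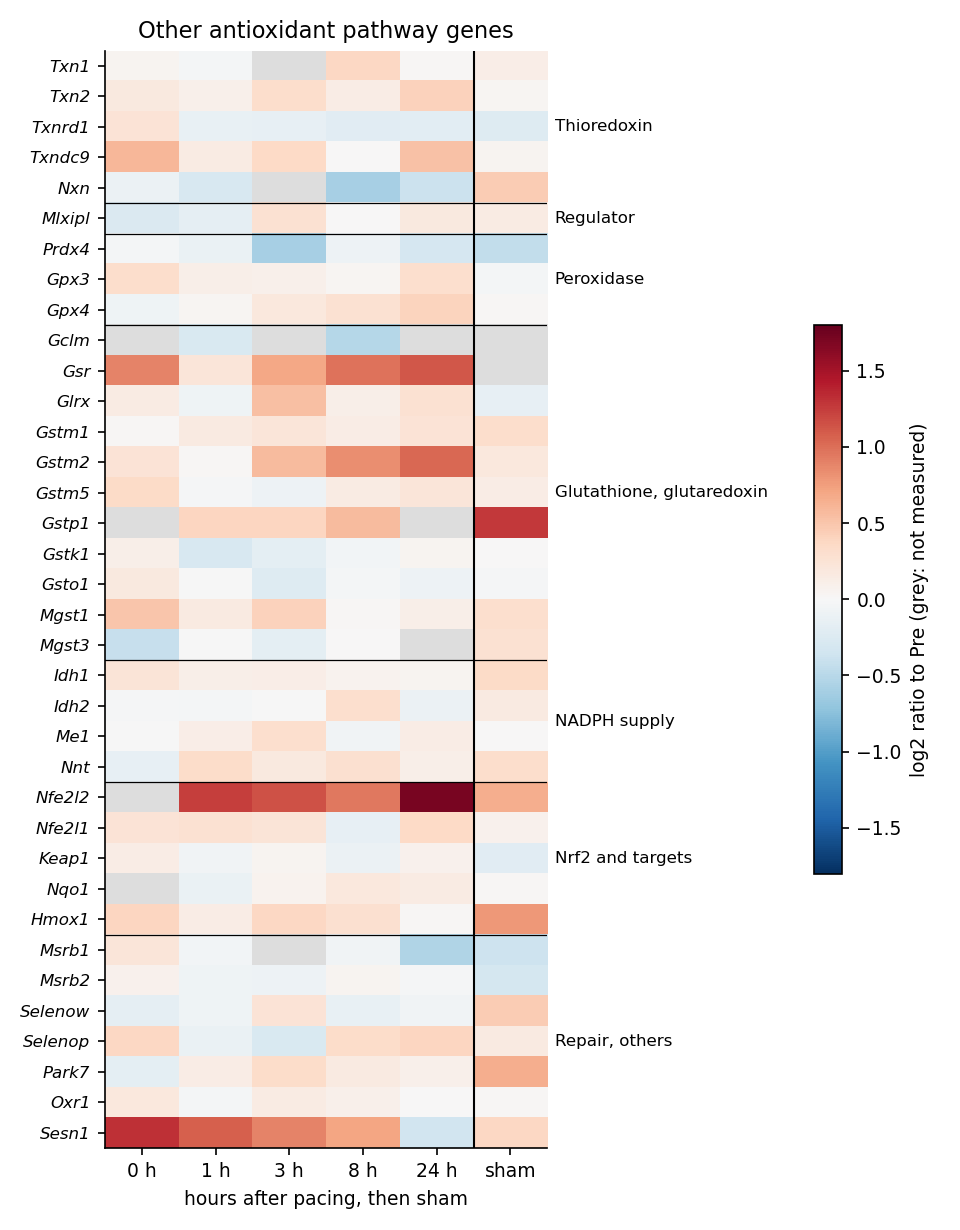
Log2 ratio to Pre (colour, red above and blue below, grey not measured) of the 36 other pathway genes with a value (rows, grouped by role) on the 5 paced arrays in order of time and in sham (columns). Nfe2l2 is red on every array where it was measured, with 1.71 (24 h) against 0.65 in sham, and Sesn1 passes from 1.31 (0 h) to -0.35 (24 h).

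Markers of other cell types were read on the same arrays, and their part in the results above was not tested. The 16 skeletal muscle markers with a probe had medians between -0.24 and -0.01 against Pre on the paced arrays and -0.05 in sham, though ratios cannot show that they were abundant. Erythroid markers, which bear on Prdx2, had medians against sham of -0.43, -0.22, -0.06, -0.16 and -0.44 on 2 or 3 genes. Macrophage and leukocyte markers had medians between -0.04 and 0.37 on 3 or 4 genes, endothelial markers between -0.08 and 0.10 on 5 or 6, and adipocyte markers between -0.52 and 0.11 on 3. Fibroblast markers had medians of -0.13, -0.04, -0.46, -0.33 and -0.67 on 4 genes, and smooth muscle markers between -0.55 and -0.13 on 4. The sham array stood apart for single smooth muscle markers, with Actg2 at 2.52 and Myl9 at -1.18 against Pre, where the paced arrays lay between -0.89 and -0.02 for Actg2 and between -0.72 and 0.24 for Myl9.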

How the data were processed

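The authors deposited 1 log10 ratio per probe and array, without signals. The labels leave the log base open, and it was read from 97 cells with rounding residues of log10. How the arrays were scanned, background-corrected and normalised is not given in the sources used here. Ratios were converted to log2. Exact zeros (smaller than 1e-09 in size) and values shared within a run of 289 probes were set to missing, and each array was centred on its median. Probes with exactly 1 symbol (6609, of which 6599 had an Entrez ID in the RefSeq table of GRCm38.p6, used for names) were averaged per gene. Paced arrays were compared with sham by subtraction, with no test, since each group had 1 array, whose number limits the precision. Members, lists and threshold were chosen with earlier results of these data known. Beyond the members, the text names the 5 genes closest to Txnl1 and to Txnip, and the pathway genes that were the 3 highest or 3 lowest against sham at a time or 2-fold from both sham and Pre; others are given as background. Alternatives are given in the closing section. The steps were tested on simulated data. Python 3.11.15, numpy 2.4.6 and pandas 2.3.3 were used.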

Additional observations from a re-analysis of the deposited data

Results flagged for a closer look

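For 3 genes the difference from sham had opposite signs at 2 times that lay at least 2-fold apart; with 1 array per time these differences between times were not tested. Prdx1 stood at 0.84 at 3 h and -0.19 at 1 h, 1.03 log2 units apart, or 0.83 apart on the probe measured on both arrays. Both were above sham with arrays scaled to a common width, at 0.71 and 0.63, and with the exact 0 kept the 3 h value was 0.02. Gstm2 stood at 0.84 at 24 h and -0.17 at 1 h, 1.01 apart, and at 0.76 and -0.10 with arrays scaled, less than 2-fold apart. Sesn1 stood at -0.72 at 24 h and 0.94 at 0 h, 1.66 apart, and at -0.56 and 1.29 with arrays scaled.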

How the results depend on the processing

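No paired analysis was possible because each group had 1 array. Of 230 recomputed counts, medians and Txnl1 to Txnip differences, 209 were labelled unchanged, within 1.5 times or the probe spread, and 21 moved. That limit does not describe the medians, which have no probe spread. Some medians labelled unchanged left 1.5 times or turned sign. At 3 h the pathway list median went from 0.08 to -0.05 with zeros and shared values kept. With probes measured on all arrays it was -0.09 at 3 h, and -0.04 at 8 h against 0.02. The enzyme median at 3 h went from 0.04 to 0.16 with the median of probes. Of 331 recomputed differences of single members, 52 moved, 17 of them against Pre in place of sham and 15 with arrays scaled. The other 279 stayed within their probe spread, save that Prdx1 and Prdx2 at 3 h had 1 probe and so no spread. Values of single probes are among the 331. Where Txnl1, Txnip, Prdx1 or Prdx2 had 2 probes, each probe alone lies within their SD by arithmetic and could not be labelled moved. With arrays scaled to a common spread, Txnl1 minus Txnip relative to sham was 1.11 at 0 h, 0.82 at 1 h and 1.15 at 3 h, 1 member was 2-fold higher at 1 h, and 1, 2 and 1 pathway genes were 2-fold higher at 0 h, 1 h and 8 h. With zeros and shared values kept, 1, 2 and 1 pathway genes were 2-fold lower at 0 h, 8 h and 24 h and 2 were higher at 24 h. With the median of probes 1 pathway gene was lower at 0 h, and with probes measured on all arrays 0 were higher at 24 h. At a 1.5-fold threshold 1 member was higher at 1 h and 2 at 3 h, and 1 was lower at 8 h and at 24 h. The 3 h count includes Prdx1, which was 1.44-fold higher on the probe measured on both arrays. Against Pre in place of sham 2 members were higher at 0 h, 3 h, 8 h and 24 h. Under the scaling, centring, zero and probe-summary alternatives Txnl1 stayed between 0.94 and 1.77 above sham, and Txnip at 8 h and 24 h between -0.96 and -0.47. The cause of these shifts was not tested. Without signals, which values lay near background is unknown.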
